A study of Mus musculus with 2 samples.

Results

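Growth factors for vessels and tissue repair were represented by 8 secreted or shed proteins, Vegfa, Pdgfb, Csf1, Hbegf, Tgfb1, Gdf15, Ptn and Osm. Each was found by its gene symbol among the 31253 features of the deposited count tables, and all 8 had a row. Their molecule counts were summed within cell types recognised by marker genes, separately in each of 2 single-cell RNA-seq libraries from infarcted mouse brain. One library is labelled flox, a group that the design text calls WT, and the other is labelled Hilpda cKO, a conditional knockout of Hilpda, an inhibitor of the triglyceride lipase Pnpla2. Both came from infarct tissue taken 3 days after tMCAO, a passing occlusion of the middle cerebral artery, digested with collagenase and captured on the BD Rhapsody microwell system. The labels do not give the Cre driver, the deleted exons, the sex or age of the animals or how many animals entered a library. With 1 library per group no difference could be tested against the spread between animals, and the genotype cannot be told apart from the preparation of a library. Intervals below are exact 95% intervals that cover counting error only, and "flox" and "cKO" name the libraries by their labels.

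These factors act between cells of the wound. Vegfa drives the sprouting and leakiness of vessels through the endothelial receptors Kdr and Flt1, while Pdgfb released by endothelium recruits pericytes through Pdgfrb. Csf1 keeps microglia and macrophages alive through Csf1r, and Hbegf is shed from the membrane to engage Egfr and Erbb4. Tgfb1 is secreted in a latent form that integrins and other proteins open before it reaches Tgfbr1 and Tgfbr2. Gdf15 is a stress-induced cytokine read by Gfral in the hindbrain, Ptn is a heparin-binding neurite factor that binds Ptprz1, and Osm is a cytokine of the interleukin-6 family that signals through Osmr and Il6st.

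The flox table held 8593 barcodes with 67864602 unique molecular identifiers (UMIs), and the table labelled cKO had 7382 barcodes with 70665440 UMIs. After filters 8065 flox cells with a median of 6997 UMIs and 6984 cKO cells with a median of 8741 UMIs were kept, and 56 barcodes occurred in both tables. Clustering without the 8 factors gave 28 clusters, of which 27 took a name from fixed marker lists. Cluster 5, led by Gpnmb, Mgst1, Fabp5 and Il18bp, had more markers of another class than of its own among its leading genes, so it stayed unnamed and is given by its number. In 9 groups each library had at least 100 cells. Cell numbers, flox then cKO, were 3119 and 2542 monocyte or macrophage-like, 2367 and 1624 microglia-like, 562 and 537 endothelial cell-like, 489 and 526 in cluster 5, 342 and 348 called oligodendrocyte-like, 274 and 247 called dendritic cell-like, 212 and 304 neutrophil-like, 188 and 187 border-associated macrophage-like, and 108 and 113 pericyte or smooth muscle cell-like. The microglia markers other than Sparc, which vessel cells also make, summed to 12136 and 10789 CPM in microglia-like cells against 382 and 208 CPM in endothelial cell-like cells. Hilpda itself stood at 273 CPM over all flox cells and 214 CPM over all cKO cells. It was lower under the cKO label in macrophage-like cells, at 489 and 295 CPM, and higher in microglia-like cells, at 102 and 221 CPM. Because the deleted exons are not given and the reads come from transcript ends, this level does not check the label.

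The genes lie on 8 chromosomes of GRCm38. Vegfa is at chr17:46016993-46032369 on the minus strand, Pdgfb at chr15:79995874-80014977 on the minus strand and Csf1 at chr3:107741048-107760469 on the minus strand. Tgfb1 is at chr7:25687002-25705077 on the plus strand, Gdf15 at chr8:70629393-70632456 on the minus strand, Ptn at chr6:36714929-36810220 on the minus strand and Osm at chr11:4236420-4241026 on the plus strand. All 8 genes, with Hbegf placed further on, are annotated as protein-coding. RefSeq promoter windows (GRCm38.p6, the 250 bases before a start) were matched for Vegfa, Csf1, Tgfb1, Gdf15 and Ptn. The windows of Vegfa and Gdf15 are shown because both genes were highest in macrophage-like cells or cluster 5, and that of Tgfb1 because it held a motif match. The first of 2 Vegfa windows is chr17:46032378-46032627 (minus strand), the first of 2 Gdf15 windows chr8:70632457-70632706 (minus strand) and the Tgfb1 window chr7:25686752-25687001 (plus strand). Capitals mark a match to one of 4 motifs.
Vegfa promoter: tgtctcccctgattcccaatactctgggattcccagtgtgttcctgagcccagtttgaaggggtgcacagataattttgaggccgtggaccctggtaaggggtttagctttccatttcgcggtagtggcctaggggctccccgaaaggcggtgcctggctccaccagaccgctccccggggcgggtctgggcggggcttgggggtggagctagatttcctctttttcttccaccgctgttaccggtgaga
Gdf15 promoter: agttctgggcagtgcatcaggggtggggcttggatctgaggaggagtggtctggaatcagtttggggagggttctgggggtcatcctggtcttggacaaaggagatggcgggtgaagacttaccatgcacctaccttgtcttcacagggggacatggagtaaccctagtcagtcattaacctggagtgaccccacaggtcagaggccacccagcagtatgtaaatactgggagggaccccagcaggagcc
Tgfb1 promoter: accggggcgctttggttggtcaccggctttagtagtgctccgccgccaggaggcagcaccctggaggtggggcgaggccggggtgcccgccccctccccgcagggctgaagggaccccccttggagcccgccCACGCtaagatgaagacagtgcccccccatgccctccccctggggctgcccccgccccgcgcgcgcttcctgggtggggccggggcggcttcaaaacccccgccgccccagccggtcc
The motifs searched on both strands were ACGTG and GCGTG, core letters of the hypoxia response element, TGATGNAA, an element bound by Atf4, and TGANTCA, an element bound by AP-1. They occurred in 16.7%, 28.3%, 3.40% and 6.73% of 32536 promoter windows of this length, and 38.8% held at least 1 of the 2 hypoxia cores, which can overlap across strands. The windows printed for Vegfa and Gdf15 held none of the 4. The second Vegfa window, chr17:46025164-46025413, held ACGTG 211 and GCGTG 218 bases before its start. The second Gdf15 window, chr8:70632096-70632345, held ACGTG on both strands, 82 and 83 bases before its start. Each of these second windows lies inside the span of its gene given above, not upstream of the gene. The Tgfb1 window held GCGTG on the opposite strand, 118 bases before the start, and 75.2% of its bases were G or C. No match says only that these letters are not in this window.

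Among the 9 compared groups the factors divided by source. Vegfa, Gdf15 and Osm were highest in macrophage-like cells or cluster 5, Pdgfb in endothelium and microglia, Csf1 in neutrophils and microglia, and Ptn in vessel wall cells and oligodendrocytes. Levels are in CPM, the UMIs of a gene divided by all UMIs of its cell group in that library and scaled to the usual CPM unit. A difference between the libraries passed the size rule when it reached 2-fold, had at least 30 UMIs in the higher library and had an interval that excluded equal levels. Over the 9 groups, 52 pairs of factor and group had enough UMIs, of which 6 were lower and 4 higher under the cKO label. Of all genes, 3.61% to 6.54% were lower and 0.577% to 3.67% higher, depending on the group.

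**Figure D1:**
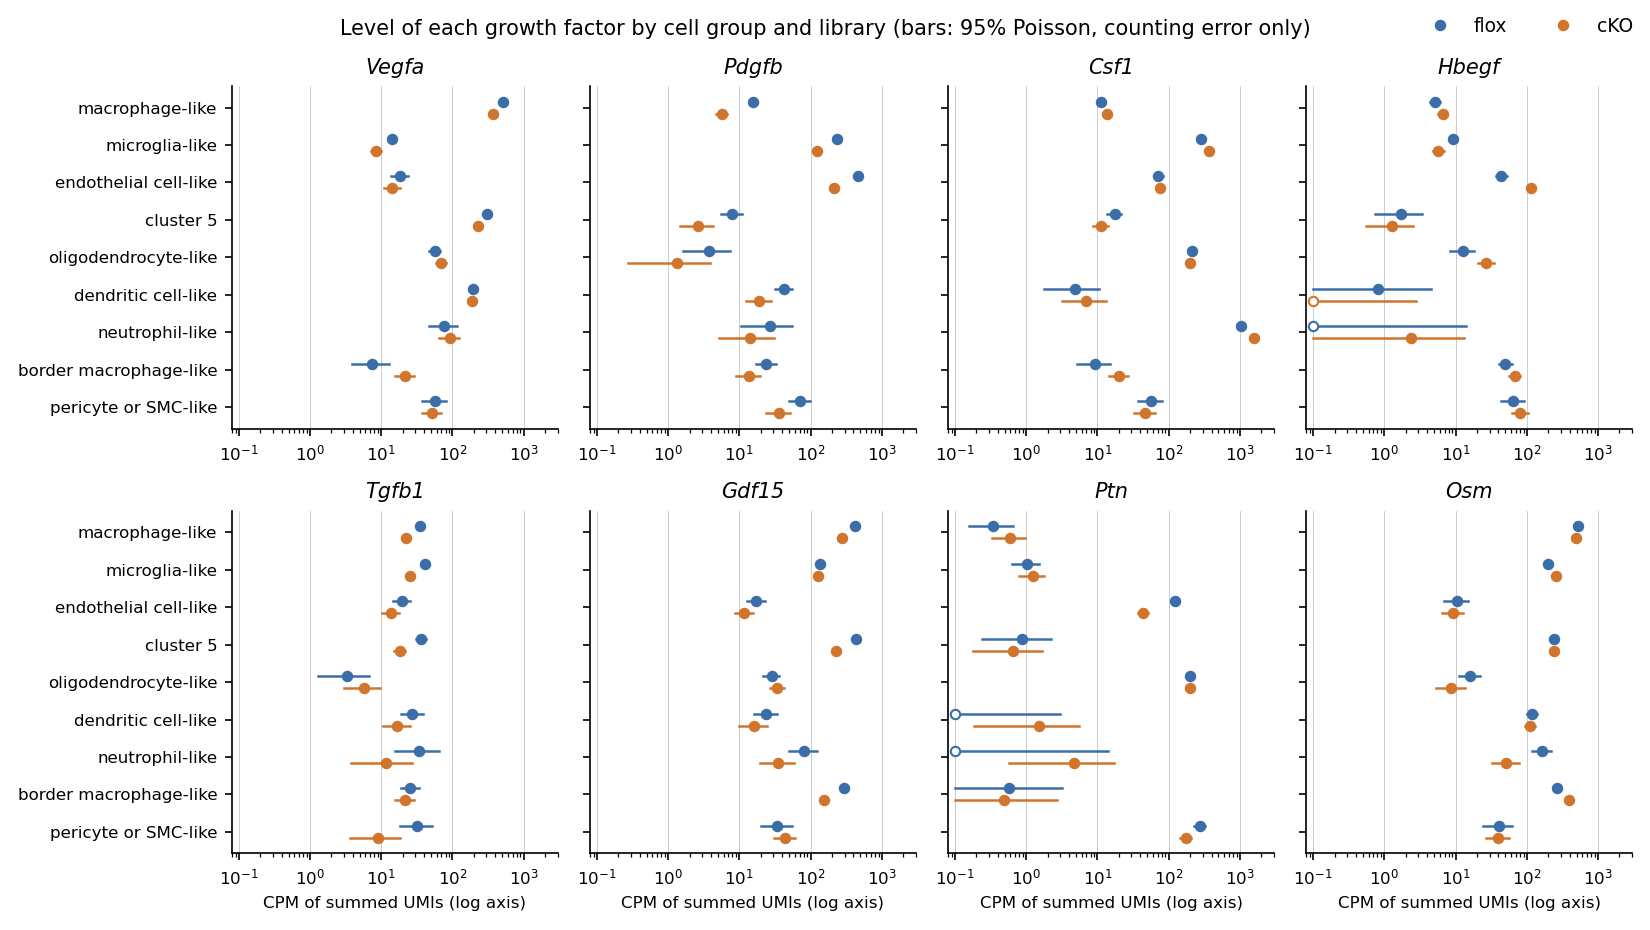
Level of each factor in the 9 cell groups, in CPM on a log axis; blue is flox and orange cKO, with 1 library each and bars for the exact 95% Poisson interval (open symbols at the left edge have 0 UMIs, and bars that reach it are cut there). Vegfa, Gdf15 and Osm are above 200 CPM in macrophage-like cells of both libraries, while Ptn stays under 1 CPM there.

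The counts are given by group beside the share of all genes that passed. In macrophage-like cells 1 of 7 factors, Pdgfb, was lower, where 5.48% of 10565 genes were lower and 0.577% higher. In microglia-like cells none of 7 passed, where 5.79% of all genes were lower and 0.708% higher. In endothelial cell-like cells Pdgfb and Ptn were lower and Hbegf higher among 7, against 6.54% and 0.899% of all genes. Pdgfb alone passed, as lower, in cluster 5 among 6 factors and in dendritic cell-like cells among 5, with 4.65% and 4.67% of all genes lower and 0.607% and 0.584% higher. Osm was lower in neutrophil-like cells among 3 factors, against 3.61% of all genes lower and 2.99% higher. Hbegf was higher in oligodendrocyte-like cells among 6, against 0.888% of all genes higher and 4.9% lower. Vegfa and Csf1 were higher in border-associated macrophage-like cells among 7, against 1.13% of all genes higher and 4.78% lower. With all cells of a library summed, Pdgfb alone of 8 passed, as lower, where 5.26% of 14170 genes were lower and 2.66% higher. None of the 4 factors measured in pericyte or smooth muscle cell-like cells passed, where 4.29% of all genes were lower and 3.67% higher. The median log2 ratio of cKO over flox among the factors was -0.45 in macrophage-like cells, where the median of all genes was 0.00, and -0.68 in microglia-like cells, where it was -0.03. In endothelial cell-like cells the 2 medians were -0.53 and -0.09, in cluster 5 -0.79 and 0.05, in dendritic cell-like cells -0.58 and -0.03 and in pericyte or smooth muscle cell-like cells -0.17 and 0.10. The median of the factors was above 0 in border-associated macrophage-like cells, at 0.43 against -0.00 for all genes, in neutrophil-like cells, at 0.26 against 0.15, and in oligodendrocyte-like cells, at 0.14 against -0.01.

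**Figure D2:**
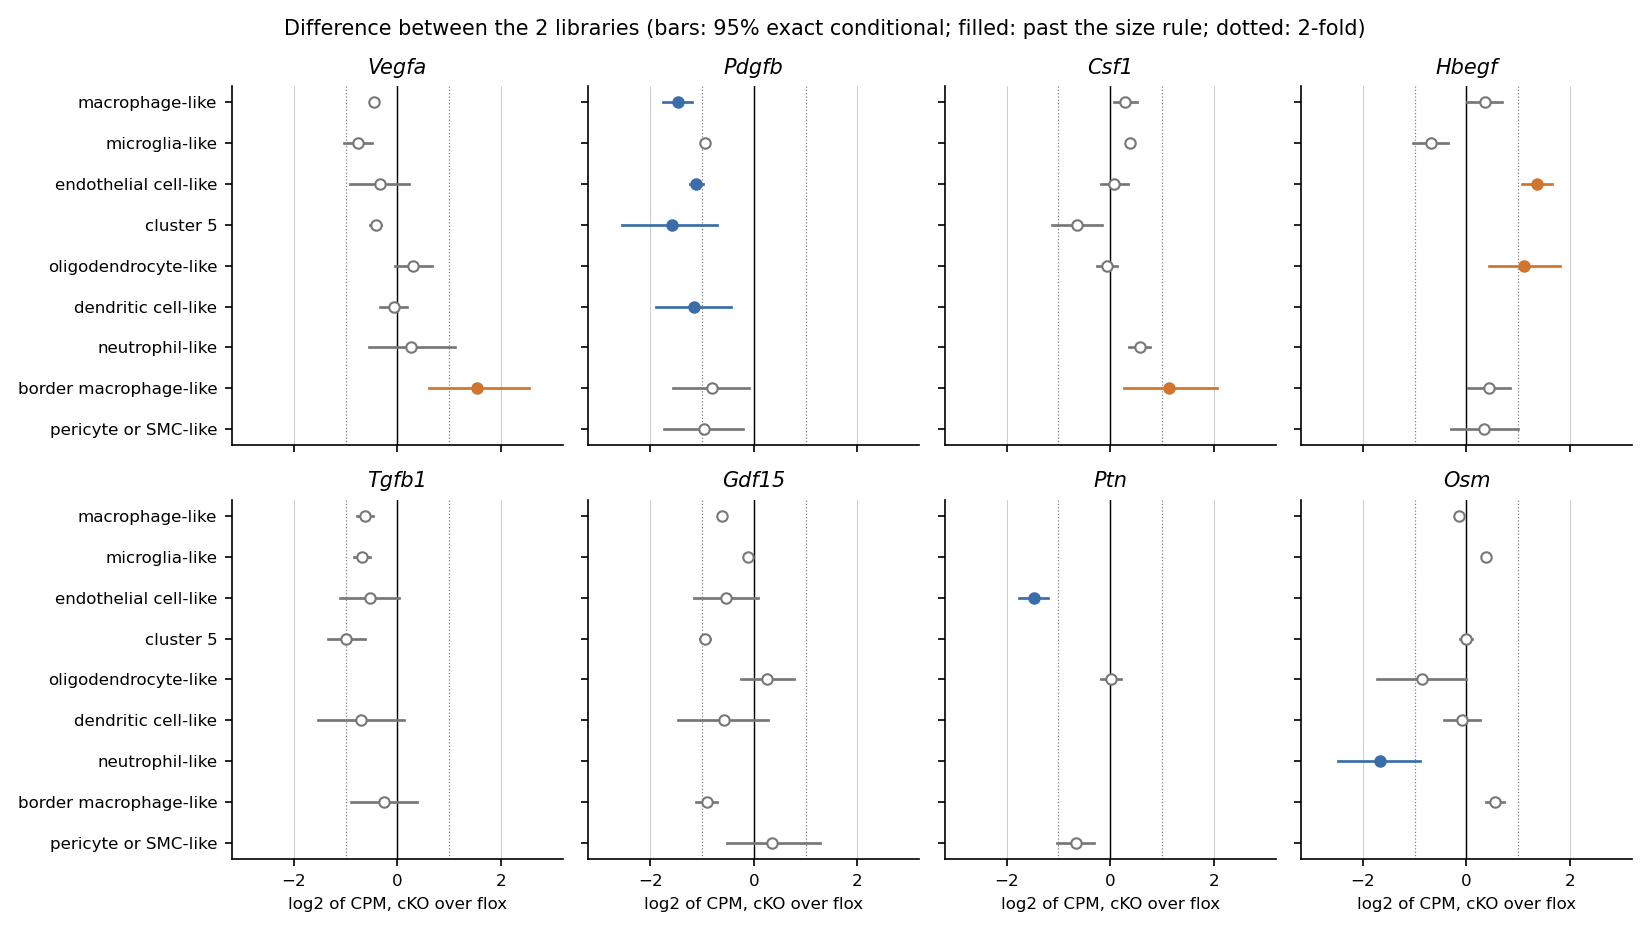
Log2 ratio of CPM, cKO over flox, for each factor and cell group with enough UMIs; bars are exact conditional 95% intervals, filled points passed the size rule and dotted lines mark 2-fold. Pdgfb lies left of 0 in all 7 groups shown, and Hbegf lies farthest to the right in endothelial cell-like cells.

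Vegfa, the main driver of vessel growth and permeability, came chiefly from macrophage-like cells. Macrophage-like cells held 514 CPM in flox (interval 506 to 523) and 376 CPM in cKO (369 to 384), and they gave 84.7% and 78.3% of all Vegfa UMIs of their library. Cluster 5 followed with 309 and 232 CPM and dendritic cell-like cells with 197 and 188 CPM. Microglia-like cells had 14.3 and 8.46 CPM. With every cell thinned to 1000 UMIs, 28.3% of flox and 24.5% of cKO macrophage-like cells had a Vegfa UMI, against 1.53% and 0.665% of microglia-like cells. Before thinning, 59.8% and 57.8% of macrophage-like cells had one (median depth 7792 and 9522 UMIs), and 8.79% and 6.59% of microglia-like cells did (8303 and 12796 UMIs). The neighbours in the middle of the order, neutrophil-like, oligodendrocyte-like and pericyte or smooth muscle cell-like cells, had overlapping intervals in each library.

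The Vegfa level was lower under the cKO label in macrophage-like cells, with a log2 ratio of -0.45 (-0.49 to -0.41), without reaching 2-fold. Within that group the 6 clusters were not alike. Cluster 3, which carries Fabp4, Pdpn and Cd36, had 669 (flox) and 403 (cKO) CPM, and cluster 2, which carries Gpnmb and Apoe, had 498 and 327 CPM. Cluster 8, rich in antigen presentation genes such as Cd74 and H2-Aa, had 435 and 418 CPM, and cluster 13, of Ly6c2 and Plac8 monocytes, 379 and 349 CPM. The log2 ratios were -0.73 (-0.80 to -0.66) in cluster 3 and -0.61 (-0.69 to -0.53) in cluster 2. In clusters 8 and 13 the intervals included equal levels, with log2 ratios of -0.06 (-0.19 to 0.07) and -0.12 (-0.34 to 0.10).

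In border-associated macrophage-like cells the order turned, with 7.41 (flox) and 21.4 (cKO) CPM, a log2 ratio of 1.53 (0.61 to 2.55) that rested on 13 and 44 UMIs. Those UMIs came from 12 and 14 cells. When each cell was assigned by its own markers in place of clusters, the ratio was -0.55, and it was 0.64 with at most 10% mitochondrial UMIs. Markers of monocytes or macrophages summed to 345 CPM in this group in flox and 396 CPM in cKO, and their part in the result was not tested.

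Receptors for Vegfa sat on the endothelium. Flt1 stood at 2271 (flox) and 1452 (cKO) CPM in endothelial cell-like cells, a log2 ratio of -0.64 (-0.70 to -0.59). Kdr, the receptor that carries most of the growth signal, stood at 567 and 581 CPM there, with a ratio of 0.04 (-0.06 to 0.13). Flt1 was among the leading genes of endothelial cluster 16, which held 215 flox and 80 cKO cells. The other endothelial cluster, 7, held 347 and 457. The part of this mix in the Flt1 ratio was not tested. The co-receptor Nrp1 was found on myeloid cells as well, at 255 and 435 CPM in macrophage-like cells and 132 and 244 CPM in microglia-like cells. Its log2 ratios were 0.77 (0.72 to 0.81) and 0.89 (0.82 to 0.95), opposite in sign to those of Vegfa in the same cells. Nrp2 stood at 160 and 175 CPM in endothelial cell-like cells and 165 and 179 CPM in macrophage-like cells.

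**Figure D3:**
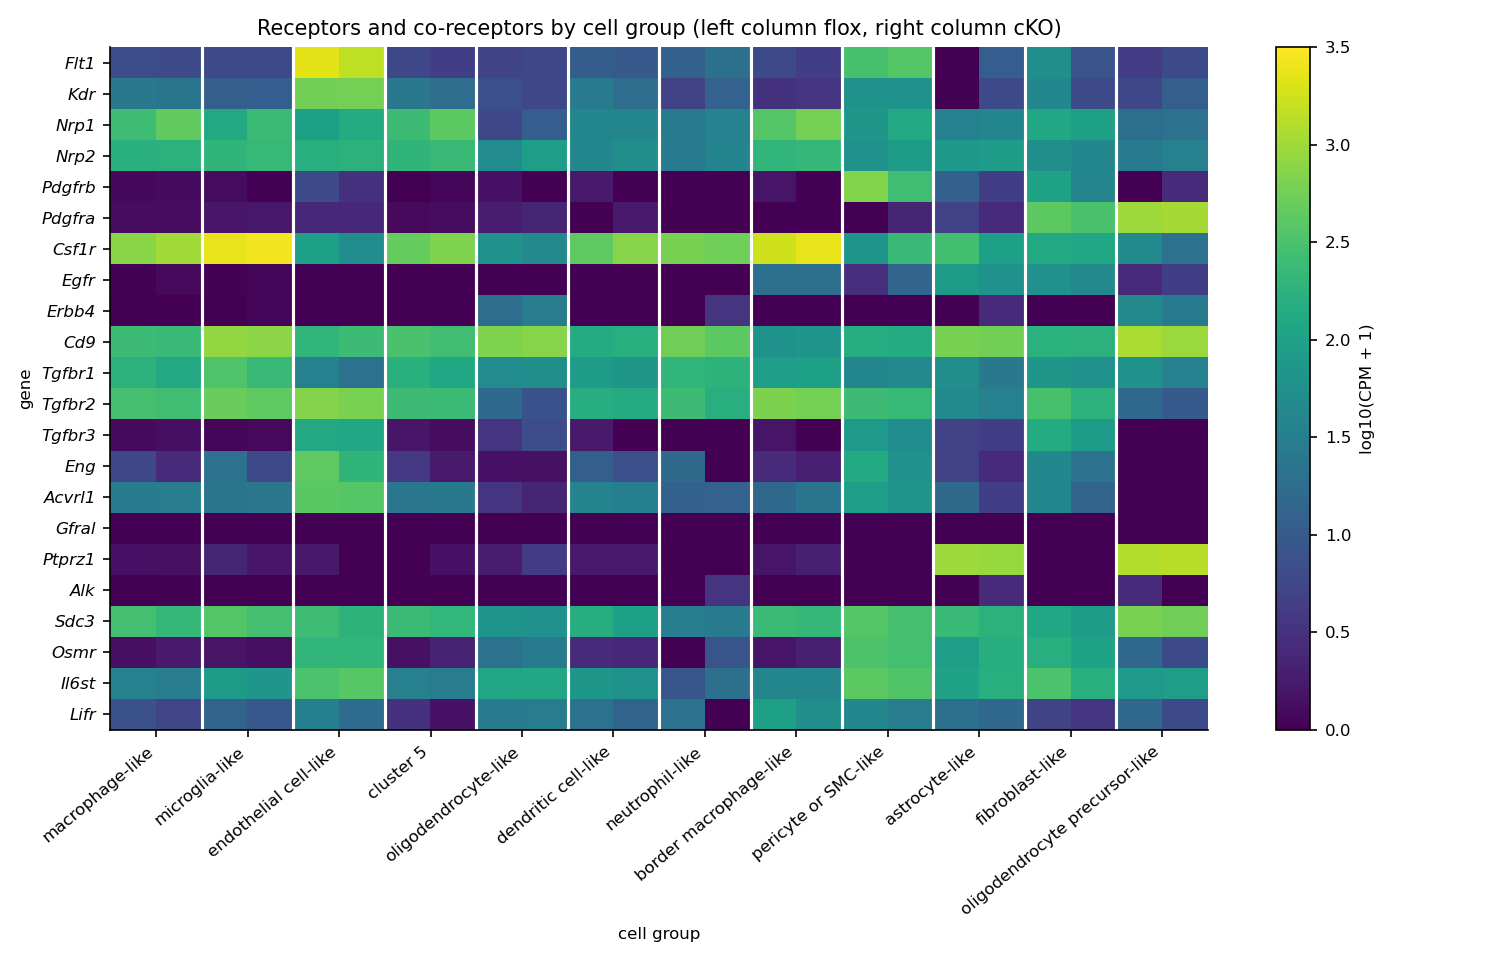
Levels of 22 receptors and co-receptors as log10(CPM + 1) in the 9 compared groups and in astrocyte-like, fibroblast-like and oligodendrocyte precursor-like cells; each pair of columns is flox (left) and cKO (right). Flt1, Kdr and Eng mark endothelial cell-like cells, Pdgfrb the pericyte or smooth muscle cell-like cells, Csf1r the myeloid groups and Ptprz1 the astrocyte-like and precursor cells.

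Pdgfb, the factor by which endothelium attracts pericytes, was highest in endothelial cell-like cells, at 462 CPM in flox (437 to 487) and 214 CPM in cKO (200 to 229). Microglia-like cells followed at 232 and 121 CPM and, being many, gave 73.3% and 69.5% of the Pdgfb UMIs of their library. Macrophage-like cells, in contrast to their Vegfa, had 15.7 and 5.64 CPM. Thinned to 1000 UMIs, 36.8% and 19.9% of endothelial cell-like cells and 18.8% and 11.1% of microglia-like cells had a Pdgfb UMI. The shares in oligodendrocyte-like cells, not a known source, were 0.364% and 0 of 289 cells. The limit of 3 counts allows up to 1.04% of those cells to have a UMI at this depth, and the upper end of the exact interval is 1.27%. The unthinned shares were 69.9% and 60.1% in endothelial cell-like cells (median depth 3932 and 5642 UMIs), and 2.05% and 0.862% in oligodendrocyte-like cells (4497 and 4893 UMIs).

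Pdgfb was the only factor with a lower CPM under the cKO label in 9 of 9 groups. These include 7 of 7 with enough UMIs, of which 4 passed the size rule. The log2 ratio was -1.11 (-1.24 to -0.98) in endothelial cell-like cells, -1.47 (-1.76 to -1.20) in macrophage-like cells, -1.59 (-2.54 to -0.70) in cluster 5 and -1.15 (-1.90 to -0.44) in dendritic cell-like cells. Microglia-like cells, at -0.94 (-1.01 to -0.87), and pericyte or smooth muscle cell-like cells, at -0.97 (-1.74 to -0.21), stayed just inside 2-fold. The endothelial ratio was -0.97 with TMM scaling and that of cluster 5 was -0.88 with equal weight per cell, both short of 2-fold. Over all cells the ratio was -1.05 (-1.10 to -0.99). Both endothelial clusters shared the direction, with 421 and 204 CPM in cluster 7, of venular genes such as Ackr1 and Vwf, and 573 and 323 CPM in cluster 16, of barrier genes such as Slco1a4 and Spock2. Cluster 16, where the level was higher and the difference short of 2-fold, held 215 flox and 80 cKO cells. The part of this mix in the endothelial ratio was not tested. Relative to the median Pdgfb ratio of the other groups, the endothelial ratio was -0.05 and that of macrophage-like cells -0.44. A shift common to every cell type and a lower level in each cannot be told apart with 1 library per group.

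The receptor Pdgfrb was found on the mural cells, at 680 (flox) and 264 (cKO) CPM. Its log2 ratio of -1.37 (-1.62 to -1.11) passed the rule in pericyte or smooth muscle cell-like cells. In that group the pericyte markers summed to 14729 (flox) and 9494 (cKO) CPM, while the smooth muscle markers summed to 6168 and 5365 CPM. Microglia markers other than Sparc summed to 318 and 831 CPM there. Their part in the Pdgfrb value was not tested. Pdgfra, the receptor of oligodendrocyte precursors and fibroblasts, stood at 969 and 1080 CPM in oligodendrocyte precursor-like cells, a group under 100 cells that is given as a level only.

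Csf1, the survival factor of microglia and macrophages, was highest per UMI in neutrophil-like cells, at 1051 CPM in flox (931 to 1182) and 1561 CPM in cKO (1444 to 1684). Microglia-like cells stood next at 284 CPM in flox (277 to 291) and 370 CPM in cKO (362 to 379) and gave 81.1% and 75.8% of all Csf1 UMIs. Oligodendrocyte-like cells had 210 and 202 CPM, and macrophage-like cells only 11.1 and 13.6 CPM. The order of these groups was the same in each library, and no intervals overlapped among the first 3. The log2 ratio was 0.57 (0.37 to 0.78) in neutrophil-like cells and 0.38 (0.34 to 0.43) in microglia-like cells, both short of 2-fold.

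Among microglia the level differed between clusters. Cluster 1, which carries Lpl, Cst7 and Igf1, had 338 (flox) and 404 (cKO) CPM, and the cycling cells of cluster 6 had 278 and 349 CPM. Cluster 4, with the resting markers P2ry12 and Siglech, had 132 (flox) and 282 (cKO) CPM, a log2 ratio of 1.09 (0.91 to 1.27). It supplied 758 of 2367 flox and 297 of 1624 cKO microglia-like cells. The part of this mix in the microglia-like Csf1 ratio was not tested. Border-associated macrophage-like cells had 9.12 and 19.96 CPM of Csf1, a ratio of 1.13 (0.27 to 2.06) from 16 and 41 UMIs, which was -0.07 when cells were assigned by their own markers. In macrophage-like cells the ratio of 0.30 (0.07 to 0.53) turned to -0.15 with at most 10% mitochondrial UMIs and to -0.14 with doublets kept.

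The receptor Csf1r was present in all of the myeloid groups. Microglia-like cells had 2327 (flox) and 2721 (cKO) CPM, border-associated macrophage-like cells 1753 and 2445 CPM, and macrophage-like cells 762 and 1024 CPM. The corresponding log2 ratios were 0.23 (0.21 to 0.24), 0.48 (0.42 to 0.55) and 0.43 (0.40 to 0.45). In pericyte or smooth muscle cell-like cells Csf1r stood at 68.4 and 232 CPM beside the higher microglia markers given above.

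Hbegf, a membrane-bound ligand of the epidermal growth factor family, (chr18:36504927-36515805, minus strand) had no single main source. Among the compared groups it was found in pericyte or smooth muscle cell-like cells at 64.4 (flox) and 81.1 (cKO) CPM, in border-associated macrophage-like cells at 50.2 and 67.7 CPM and in endothelial cell-like cells at 43.9 and 113 CPM. The intervals of these 3 groups overlapped in flox, and in cKO the endothelial interval overlapped that of the pericyte or smooth muscle cell-like cells alone. Astrocyte-like cells, with only 47 and 92 cells, had more than any compared group, at 271 CPM in flox (212 to 341) and 381 CPM in cKO (333 to 434). Fibroblast-like cells had 91.2 and 104 CPM. Dendritic cell-like and neutrophil-like cells held at most 1 UMI in a library.

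The endothelial difference was the clearest of this factor, with 123 UMIs in flox and 441 in cKO and a log2 ratio of 1.36 (1.07 to 1.66). In the venular cluster 7 the level was 43.7 (flox) and 116 (cKO) CPM, a ratio of 1.41 (1.08 to 1.76). In the barrier cluster 16 it was also higher under the cKO label, at 44.6 and 74.5 CPM, from 33 and 24 UMIs. The part of the mix of these clusters in the endothelial Hbegf ratio was not tested. Oligodendrocyte-like cells had 12.6 and 27.2 CPM, a ratio of 1.11 (0.43 to 1.82) that was 0.99 with doublets kept and 0.90 when cells were assigned by their own markers, whereas in microglia-like cells the level was lower under the cKO label, at 9.23 and 5.72 CPM. Of the sheddases that release Hbegf, Adam17 stood at 268 and 333 CPM in macrophage-like cells and 266 and 312 CPM in microglia-like cells. Among its receptors, Egfr was found mainly in groups under 100 cells, at 139 and 80.4 CPM in neuroblast-like and 79.0 and 61.5 CPM in astrocyte-like cells. No Egfr UMI was counted in endothelial cell-like or oligodendrocyte-like cells. Erbb4 stood at 113 and 192 CPM in neuroblast-like cells and 16.8 and 28.9 CPM in oligodendrocyte-like cells. Cd9, a tetraspanin that partners with membrane-bound Hbegf, stood at 857 and 785 CPM in microglia-like cells.

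Tgfb1, which restrains inflammation and promotes scarring, was spread thinly over the immune cells. Microglia-like cells had 40.8 (flox) and 25.5 (cKO) CPM, macrophage-like cells 34.8 and 22.5 CPM and cluster 5 36.0 and 18.2 CPM. Endothelial cell-like cells had 19.6 and 13.6 CPM, while oligodendrocyte-like cells were at 3.27 and 5.70 CPM. In flox the intervals of neighbouring groups overlapped all the way from microglia-like to endothelial cell-like cells. Tgfb1 was lower under the cKO label in 8 of 9 groups, with log2 ratios of -0.68 (-0.83 to -0.52) in microglia-like cells, -0.63 (-0.78 to -0.48) among macrophage-like cells and -0.99 (-1.35 to -0.63) in cluster 5. All 6 groups with enough UMIs were lower, and none reached 2-fold.

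Base composition moved with this difference. The last 500 bases of the longest coding transcript of Tgfb1 are 62.8% G or C, higher than in 99.2% of genes with a value. In macrophage-like cells, 108 genes with at least 60% GC had a median log2 ratio of -1.12, and 55.6% of them were lower by the size rule, against -0.44 and 32.2% among 821 genes at 55 to 60% GC. Between 30 and 55% the medians of the bins lay between -0.03 and 0.06. After the median of genes of like GC was subtracted, the Tgfb1 ratio was 0.49 for macrophage-like cells and 0.53 for microglia-like cells, so its sign turned. Gdf15, at 56.2% GC, stood at -0.18 and 0.37 after this step. Pdgfb, at 50.2% GC, and Vegfa, at 27.6% GC, kept ratios of -1.49 and -0.40 in macrophage-like cells. In the bin that holds Pdgfb, 50 to 55% GC, 9.11% of macrophage-like genes were lower by the size rule, against 2.63% at 45 to 50%. Csf1, Ptn and Osm had 42.0%, 42.0% and 42.2% GC and Hbegf 46.6%, where the bins were near 0.

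**Figure D4:**
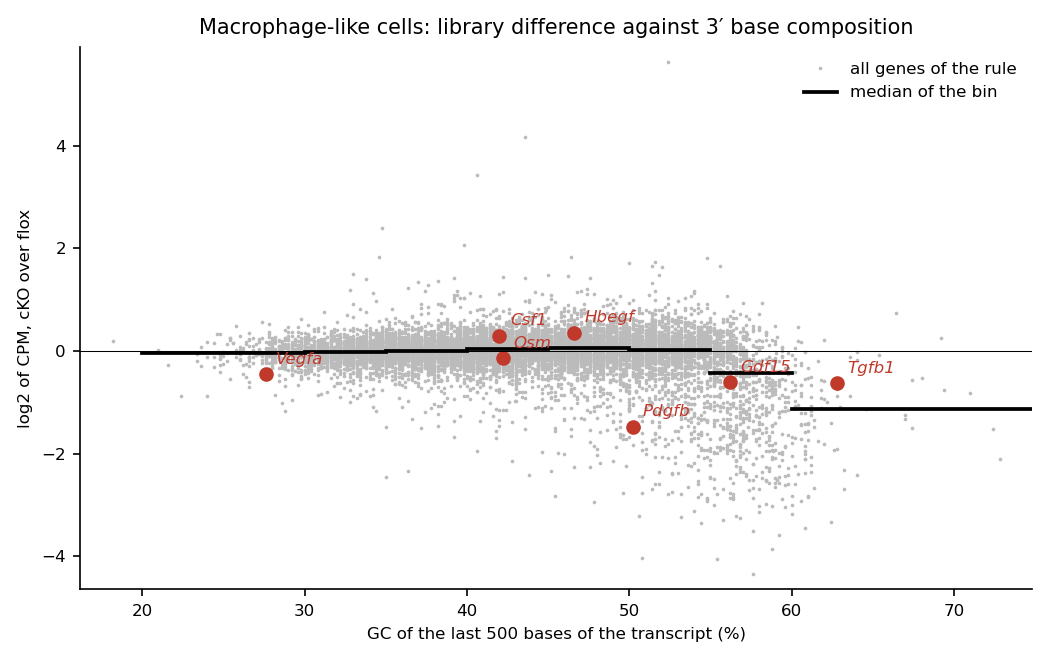
Log2 ratio of CPM, cKO over flox, in macrophage-like cells against the GC of the last 500 transcript bases; grey points are all genes with enough UMIs, black lines the medians of GC bins and red points the 7 factors measured there. Tgfb1 and Gdf15 lie in the GC range where the medians fall to -1.12 and -0.44, while Pdgfb and Vegfa lie below medians near 0.

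The receptors of Tgfb1 were widespread. Tgfbr2 stood at 700 and 623 CPM in endothelial cell-like cells, 644 and 588 CPM in border-associated macrophage-like cells and 498 and 432 CPM in microglia-like cells. Tgfbr1 was highest in microglia-like cells, at 347 (flox) and 238 (cKO) CPM, a log2 ratio of -0.54 (-0.59 to -0.49). Eng, the endothelial co-receptor for this family, stood at 431 and 196 CPM in endothelial cell-like cells, a ratio of -1.14 (-1.27 to -1.01). It also passed the rule in microglia-like cells at 19.9 and 4.96 CPM, with a log2 ratio between -2.32 and -1.69. Acvrl1, which works with Eng, stood at 406 and 374 CPM in endothelial cell-like cells. The part of the mix of endothelial clusters, given above for Flt1, in these endothelial values was not tested. Of the proteins that hold or free latent Tgfb1, Nrros had 507 and 530 CPM in border-associated macrophage-like cells, and Thbs1 reached 5337 and 6115 CPM in macrophage-like cells.

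Gdf15, a cytokine made under mitochondrial and nutrient stress, was highest in macrophage-like cells and cluster 5. Cluster 5 had 433 CPM in flox (414 to 453) and 225 CPM in cKO (213 to 237), and macrophage-like cells had 424 CPM (416 to 432) and 277 CPM (271 to 284). The intervals of these 2 groups overlapped in flox and did not in cKO, where macrophage-like cells were higher. Border-associated macrophage-like cells had 292 and 155 CPM and microglia-like cells 136 and 125 CPM. Endothelial cell-like cells had 17.1 and 11.8 CPM. When each cell was assigned by its own markers, which leaves no cluster 5, border-associated macrophage-like cells were highest in flox and in cKO.

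Within macrophages the level differed widely between clusters. Cluster 2, where Gdf15 was itself the leading gene although it took no part in clustering, had 640 (flox) and 443 (cKO) CPM. Cluster 3 had 460 and 283 CPM, and the monocytes of cluster 13 only 35.9 and 25.1 CPM. The log2 ratio was -0.61 (-0.65 to -0.57) in macrophage-like cells, -0.95 (-1.05 to -0.85) in cluster 5 and -0.91 (-1.12 to -0.71) in border-associated macrophage-like cells, and it was -0.11 (-0.19 to -0.04) in microglia-like cells. These values stand beside the GC step given above for Tgfb1. No UMI of its receptor Gfral was counted in any group of either library.

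**Figure D5:**
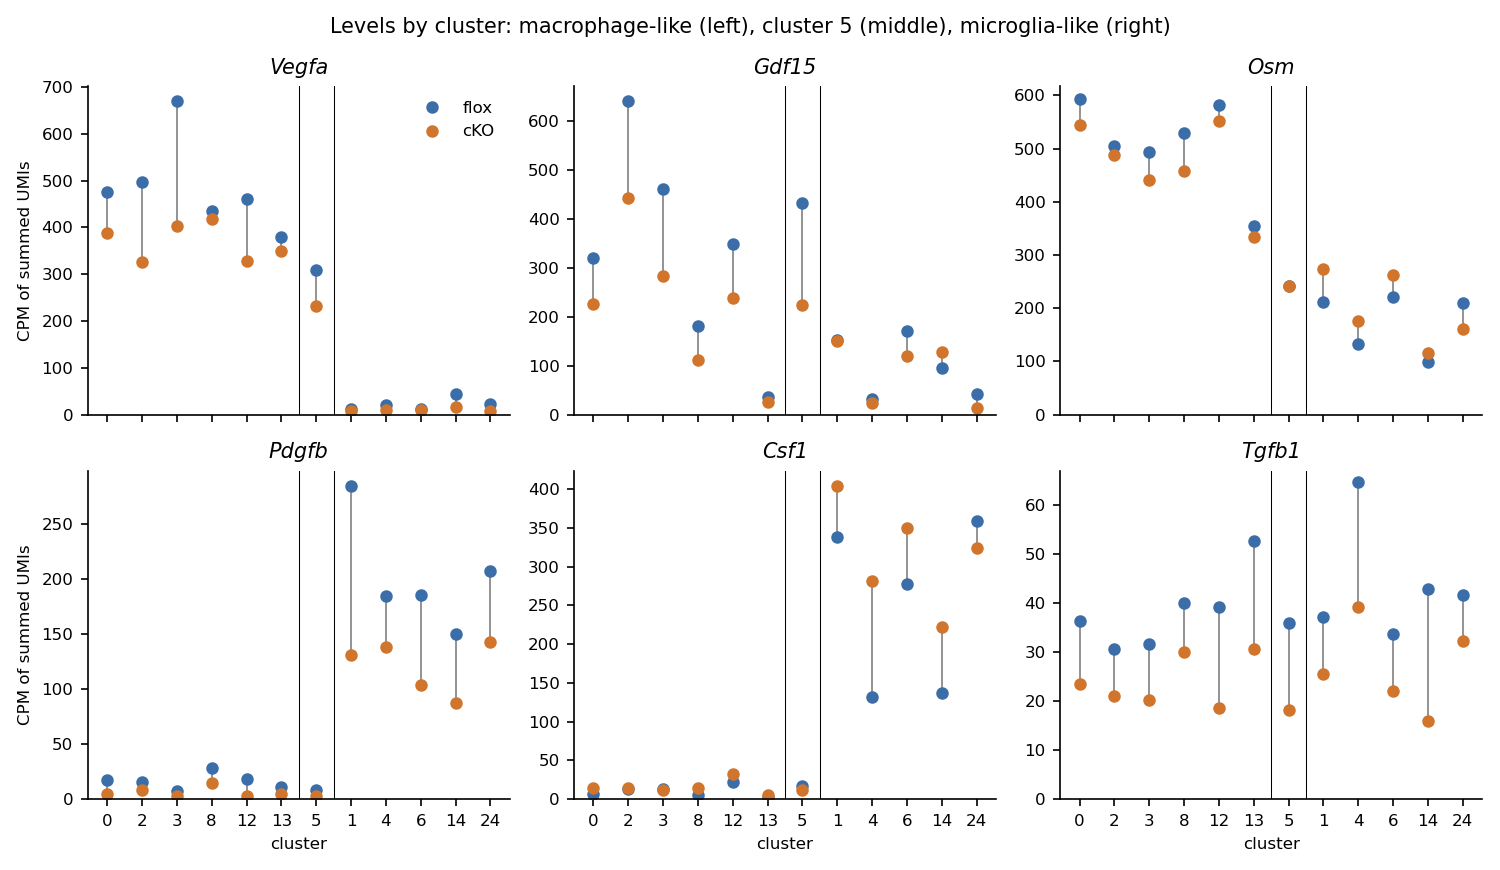
Levels of 6 factors in CPM by cluster, with macrophage-like clusters on the left, cluster 5 in the middle and microglia-like clusters on the right; blue is flox, orange cKO and grey lines join the 2 libraries. In flox, Vegfa spans 379 to 669 CPM and Gdf15 35.9 to 640 CPM between macrophage-like clusters, and Pdgfb and Csf1 are above 80 CPM in microglia-like clusters alone.

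Ptn, a heparin-binding factor for axons and vessels, came from stromal and glial cells and was near absent from immune cells. Pericyte or smooth muscle cell-like cells had 274 (flox) and 173 (cKO) CPM, oligodendrocyte-like cells 197 and 199 CPM and endothelial cell-like cells 121 and 43.6 CPM. In cKO the first 2 of these overlapped. Macrophage-like cells had 0.345 and 0.587 CPM, from 9 and 15 UMIs. Groups under 100 cells had the highest levels, with 899 and 832 CPM in astrocyte-like, 870 and 315 CPM in fibroblast-like and 575 and 591 CPM in oligodendrocyte precursor-like cells.

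The endothelial difference of Ptn, a log2 ratio of -1.48 (-1.75 to -1.21), stood beside a different mix of endothelial clusters in the libraries. The barrier cluster 16 had 381 (flox) and 276 (cKO) CPM, and the venular cluster 7 had 28.2 and 22.6 CPM. The ratios inside them were -0.46 (-0.83 to -0.12) and -0.32 (-0.82 to 0.20), neither past the rule. Cluster 16 supplied 215 of the flox and 80 of the cKO endothelial cell-like cells, and cluster 7 supplied 347 and 457. Of the Ptn receptors, Ptprz1 stood at 1262 and 1334 CPM in oligodendrocyte precursor-like cells and 963 and 904 CPM in astrocyte-like cells. Sdc3, a heparan sulfate proteoglycan that binds Ptn, stood at 623 and 555 CPM in oligodendrocyte precursor-like cells. Alk had at most 1 UMI in any group of a library.

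Osm, a cytokine that acts on endothelium, astrocytes and stromal cells, was highest in macrophage-like cells, at 531 CPM in flox (522 to 540) and 483 CPM in cKO (474 to 492). Border-associated macrophage-like cells had 268 and 392.4 CPM, cluster 5 had 242 and 241 CPM and microglia-like cells had 200 and 258 CPM. In flox the intervals of border-associated macrophage-like cells and cluster 5 overlapped. The direction differed between these groups, with log2 ratios of -0.14 (-0.17 to -0.10) in macrophage-like cells, 0.37 (0.31 to 0.43) in microglia-like cells and 0.55 (0.38 to 0.72) in border-associated macrophage-like cells. All 3 stayed under 2-fold. When cells were assigned by their own markers, the border-associated macrophage-like ratio turned to -0.09 and the microglia-like ratio was 0.12.

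In neutrophil-like cells Osm stood at 163 (flox) and 51.4 (cKO) CPM, a ratio of -1.67 (-2.48 to -0.89) from 43 and 22 UMIs. Monocyte or macrophage markers in that group summed to 1540 and 1079 CPM, microglia markers other than Sparc to 1567 and 1007 CPM and its own neutrophil markers to 30478 and 22766 CPM. The ratio was -0.25 when each cell was assigned by its own markers, and the part of these other cells in the result was not tested. The receptor Osmr was found away from the source, at 328 and 281 CPM in pericyte or smooth muscle cell-like cells, 197 and 200 CPM in endothelial cell-like cells and 90.3 and 150 CPM in astrocyte-like cells. Its partner Il6st stood at 322 and 384 CPM in endothelial cell-like cells. Lifr, which Osm can also engage in the mouse, stood at 97.5 and 52.1 CPM in border-associated macrophage-like cells. Socs3, a response gene of this receptor family, stood at 267 and 443 CPM in microglia-like cells, a ratio of 0.73 (0.69 to 0.78).

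The wider pathway list held 67 further genes, 24 ligands, 22 receptors, 9 proteins of release and activation and 12 response genes. In macrophage-like cells 41 had enough UMIs and 3 were lower, Eng, Ddit3 and Sesn2, with none higher, where 5.48% of all genes were lower. In microglia-like cells 3 of 42 were lower, the same Eng, Ddit3 and Sesn2, and 3 were higher, Areg, Lif and Timp1, where 5.79% of all genes were lower and 0.708% higher. Of 41 in endothelial cell-like cells 4 were lower, Vegfc, Tgfb2, Eng and Ddit3, where 6.54% of all genes were lower. Ddit3, a transcription factor of the unfolded protein response, stood at 32.6 (flox) and 11.2 (cKO) CPM microglia-like cells and at 15.8 and 4.66 CPM in macrophage-like cells. Sesn2, a stress-induced regulator of growth, stood at 15.4 and 7.08 CPM in macrophage-like cells. The last 500 bases of Ddit3 and Sesn2 are 57.0% and 56.0% G or C, in the range where 32.2% of genes were lower, and those of Eng are 47.6%. Lif, a cytokine related to Osm, stood at 2.02 and 7.47 CPM in microglia-like cells, a ratio of 1.89 (1.40 to 2.39). Tgfb2 stood at 71.8 and 29.5 CPM and Vegfc, a lymphatic and vascular ligand, at 17.9 and 8.71 CPM in endothelial cell-like cells. The part of the mix of endothelial clusters in these values was not tested.

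Other ligands of the list had high levels in stromal or glial cells. Pdgfa stood at 1089 and 1265 CPM in pericyte or smooth muscle cell-like cells, Tgfa at 944 and 732 CPM in oligodendrocyte-like cells and Mdk, the relative of Ptn, at 576 and 292 CPM in fibroblast-like cells. Among the response genes Tgfbi, a Tgfb1 target, stood at 1537 and 1459 CPM in macrophage-like cells, with a ratio of -0.08 (-0.10 to -0.06).

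The genes with the most similar pattern were sought as the highest Pearson r of log2(CPM + 10) over 18 points, the 9 groups in each library, among 10141 genes. The points share libraries and depth, so r is given as a description. Gdf15 was most like Apoe (0.96), a lipid carrier of phagocytes, Zranb3 (0.95) and the lysosomal protease Ctsb (0.94). Osm was most like Gpr65 (0.97), Asah1 (0.97) and the microglia and macrophage gene Aif1 (0.95). Vegfa was most like Ric1 (0.88), the coagulation factor F10 (0.86) and Prdx6 (0.86), and Pdgfb was most like the endothelial genes Cd34 (0.92) and Ecscr (0.90) and like Tmem64 (0.90). Hbegf was most like Lima1 (0.94), Kank2 (0.93) and Tshz3 (0.93), and Ptn was most like Dlg5 (0.99), Cdh2 (0.99) and Mid2 (0.98). The values were lower for Csf1, with H2bc4 (0.86), Fbxl14 (0.84) and Gmeb1 (0.84), and for Tgfb1, with Cyba (0.86), Rnft1 (0.84) and Capzb (0.84). Among the factors themselves Gdf15 and Osm were the most alike, with r of 0.84, and Ptn and Osm the least, with r of -0.84.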

How the data were processed

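The 2 libraries were compared as deposited, as tables of UMI counts per gene and cell barcode that the authors made, per the file headers. The submitters' processing notes name CASAVA 1.8, STARsolo, Seurat and mm10, with no roles stated. Cells with at least 500 UMIs, 200 genes and at most 25% mitochondrial UMIs were kept, and Scrublet calls (6% expected) were removed. Cells were clustered with scanpy 1.11.5 and leidenalg 0.10.2 (2000 variable genes, 30 components, 20 neighbours, resolution 1) in Python 3.11.15, leaving out 209 genes that include the 8 factors, the pathway list and Hilpda. Clusters were named from fixed markers, by thresholds set after the clusters were seen. UMIs were summed per group and library and divided by the group's total, with exact intervals from scipy 1.17.1. TMM scaling used edgeR 4.0.16 in R 4.3.3, for factors only. Shares of cells were thinned to 1000 UMIs per cell, leaving out shallower cells. The 3' GC used the last 500 bases of the longest coding transcript of GENCODE. The script was tested on simulated data. The factors, lists and tests were chosen with earlier results of these data known. Named genes were the 8 factors, their receptors, pathway genes past the size rule in macrophage-like, microglia-like or endothelial cell-like cells, the pathway genes of each role with the highest CPM and the 3 most similar genes per factor. Intervals cover counting error only, since 1 library per group leaves no spread between animals. One response gene of the pathway list is not reported here.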

Additional observations from a re-analysis of the deposited data

Results flagged for a closer look

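For 4 factors the log2 ratio of cKO over flox pointed in opposite directions in different cell groups, each with an interval clear of 0. With 1 library per group the differences between groups were not tested. Vegfa stood at -0.45 among macrophage-like cells, -0.76 among microglia-like cells and -0.42 within cluster 5, against 1.53 in border-associated macrophage-like cells. That border-associated value of Vegfa rested on 13 and 44 UMIs and changed sign with cells assigned by their own markers. Csf1 stood at 0.30 in macrophage-like, 0.38 in microglia-like, 0.57 in neutrophil-like and 1.13 in border-associated macrophage-like cells, against -0.63 in cluster 5. The macrophage-like value of Csf1 turned to -0.15 with at most 10% mitochondrial UMIs and to -0.14 with doublets kept, and was 0.03 at resolution 2. The border-associated value of Csf1, from 16 and 41 UMIs, turned to -0.07 with cells assigned by their own markers. Hbegf stood at 0.35 in macrophage-like, 1.36 in endothelial cell-like, 1.11 in oligodendrocyte-like and 0.43 in border-associated macrophage-like cells, against -0.69 in microglia-like cells. Osm stood at 0.37 in microglia-like and 0.55 in border-associated macrophage-like cells, against -0.14 in macrophage-like, -0.86 in oligodendrocyte-like and -1.67 in neutrophil-like cells. The oligodendrocyte-like value of Osm rested on 34 and 20 UMIs and turned to 0.04 with doublets kept, 0.27 with cells assigned by their own markers and 0.40 with equal weight per cell. The border-associated value of Osm turned to -0.09 with cells assigned by their own markers.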

How the results depend on the processing

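No paired analysis was possible because each group is 1 library and the labels give no replicate numbers. When each cell was assigned by its own markers, the ratios of Vegfa and Csf1 in border-associated macrophage-like cells turned to -0.55 and -0.07. The factors counted as higher went from 4 to 1 under that assignment and to 1 with a minimum of 100 CPM. Those counted as lower went from 6 to 3 with 100 CPM, to 20 at 1.5-fold and to 3 relative to the other groups. The pathway genes counted as higher went from 8 to 4 at 10% mitochondrial UMIs, 5 at resolution 0.5, 4 with cells assigned by their own markers, 1 with 100 CPM and 27 at 1.5-fold. Those counted as lower went from 17 to 5 with 100 CPM, 27 with 10 UMIs, 33 at 1.5-fold and 5 relative to the other groups. These counts of factors and pathway genes are summed over the groups with a value at each setting, without a share of all genes at each setting. The groups differed between settings. Of 52 pairs of factor and group, 42 remained at 10% mitochondrial UMIs and at resolution 0.5, and 37 under own-marker assignment. In the main setting 3 of the 8 higher pathway genes were in pericyte or smooth muscle cell-like cells, which gave no value at 10% mitochondrial UMIs. Counts over all genes, given next, also moved with 100 CPM and at 1.5-fold, so the counts are no result about the lists. Of all genes, those higher in endothelial cell-like cells went from 77 to 119 with TMM scaling, 152 with equal weight per cell, 136 after GC subtraction, 10 with 100 CPM, 144 with 10 UMIs and 298 at 1.5-fold. In microglia-like cells they went from 78 to 180 with equal weight, 124 after GC subtraction, 4 with 100 CPM, 135 with 10 UMIs and 329 at 1.5-fold, and in macrophage-like cells from 61 to 1, 127 and 246 under the last 3 of these. The lower genes went from 560 to 92, 860 and 1117 in endothelial cell-like cells under those 3. With 100 CPM and at 1.5-fold they went from 638 to 67 and 1121 in microglia-like cells and from 579 to 64 and 935 in macrophage-like cells. Of the 24 most similar genes 13 stayed among the first 3 with a pseudocount of 1. The group with the highest level changed for some factors. With cells assigned by their own markers it was border-associated macrophage-like cells for Gdf15 in both libraries. At 10% mitochondrial UMIs it was border-associated macrophage-like cells for Hbegf and oligodendrocyte-like cells for Ptn, in flox. Pericyte or smooth muscle cell-like cells, the highest group for both in the main setting, fell below 100 cells there and were not ranked. With at least 1000 UMIs per cell the highest group for Tgfb1 in flox was neutrophil-like cells. That group had 9 Tgfb1 UMIs in flox in the main setting, with an interval that overlapped that of microglia-like cells. TMM scaling subtracts a shift of -0.14 in endothelial cell-like cells, which moved Pdgfb there from -1.11 to -0.97 and Ptn from -1.48 to -1.34. The sign of a ratio changed in 9 of 52 pairs after GC subtraction, 14 of 52 relative to the other groups, 8 of 52 with equal weight, 6 of 46 with doublets kept, 2 of 42 at 10% mitochondrial UMIs and 9 of 37 with cells assigned by their own markers. The comparisons with the other groups, with cluster 5 among macrophage-like cells and with a pseudocount of 1, and all alternatives for the pathway list, were chosen after seeing the data. Some groups fell below 100 cells and gave no value, such as pericyte or smooth muscle cell-like cells at 10% mitochondrial UMIs. The cause of these shifts was not tested.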

Other observations

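Groups with fewer than 100 cells in a library held further sources of the factors, given as levels only. Fibroblast-like cells, with 34 flox and 100 cKO cells, had 290 and 255 CPM of Vegfa and 273 and 278 CPM of Csf1. Astrocyte-like cells had 128 CPM of Csf1 in flox (89 to 179) and 226 CPM in cKO (189 to 267), intervals that did not overlap. Choroid plexus epithelial cell-like cells, with 76 and 160 cells, had 384 and 420 CPM of Tgfb2.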
